A study of Mus musculus with 24 samples.

Results

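Collagens, laminins and the proteins that join them into basement membranes were followed in mouse retinal organoids (MROs), which are small aggregates of retinal tissue grown from embryonic stem cells. The genes are those of a naming rule: protein-coding mouse genes whose symbol is Col, digits, a and digits, or Lama, Lamb or Lamc and a digit, together with Fn1, Fbn1, Fbn2, Nid1, Nid2, Hspg2 and Agrn. This gave 62 genes of 46603 annotated genes, in tables of 126602 counted features. Of the 62, 51 had a base mean (mean normalized count over all organoids) of at least 10 and were tested, and 11 fell under that filter. Each library came from 1 whole organoid, and 6 organoids were taken at each of 4 days of culture (D20, D22, D25 and D30) in 1 independent experiment. The organoids were derived from the mouse embryonic stem cell line E14Tg2a (wildtype), carry the genotype label Control, and received only water, the solvent. By these labels the groups differ in day of culture. The titles of D22, D25 and D30 also carry Ctrl and those of D20 do not, the protocol describing D20 as sampled in controls only. 1 line in 1 experiment limits the data as a model: the spread between organoids does not cover the spread between experiments. Matrigel, an extract of basement membrane proteins, was part of the early culture, and RNA sequencing measures transcripts and not matrix protein.

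Basement membranes are thin sheets in which a network of collagen IV and a network of laminin, each laminin being a trimer of an alpha, a beta and a gamma chain, are tied together by nidogens and by the heparan sulfate proteoglycans perlecan and agrin. In the eye they form the inner limiting membrane, on which the endfeet of Müller glia rest, and take part in Bruch's membrane, the lens capsule and the walls of blood vessels. Fibrillar collagens form fibres of the stroma and sclera, and collagens II, IX and XI form those of the vitreous.

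Between 13634846 and 19477108 reads were counted on features per organoid, and the 62 genes took 0.0621 to 0.220% of them. The highest share was that of D30 organoid 6, and the next highest was 0.129% in D30 organoid 5. Levels are given as normalized CPM, meaning TMM-normalized counts at a common library size (CPM). At this depth 3 counts correspond to 0.166 to 0.216 CPM, a floor that covers counting error only. The replicates were separate organoids and differed by far more than counting error, the biological coefficient of variation common to all features being 0.385. Markers of retinal neurons stood at 1881 to 2241 (median 2018) at D20, 2138 to 2684 (median 2353) at D22, 1922 to 2780.5 (median 2382) at D25 and 1499 to 2378 (median 2149.7) at D30 (sum of 8 genes, lowest to highest of 6 organoids). Crx, a photoreceptor transcription factor, was at 537 CPM or more in every organoid.

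1 library stood apart and is described before the results. In D30 organoid 6, Lama1, the alpha chain of laminin-111, was at 257 normalized CPM against 8.11 to 13.5 in organoids 1 to 5 (25.2 times their mean). Col4a1, the main collagen IV chain, was at 343 normalized CPM against 21.1 to 54.2 in organoids 1 to 5 (10.1 times their mean), and its partner Col4a2 at 237 normalized CPM against 18.9 to 46.5 in organoids 1 to 5 (7.83 times their mean). The laminin chains Lamb1 and Lamc1 were at 267 normalized CPM against 19.0 to 37.9 in organoids 1 to 5 (9.04 times their mean) and 183 normalized CPM against 35.0 to 50.1 in organoids 1 to 5 (4.28 times their mean), and the linker Nid1 at 62.5 normalized CPM against 11.7 to 25.7 in organoids 1 to 5 (3.68 times their mean). The same organoid was the lowest of D30 in Col6a3 (0.333), Col3a1 (2.77), Col22a1 (0.277), Col16a1 (1.27) and Fn1 (25.8 CPM), and in Col4a5 and Col4a6 as well. 11 markers of endoderm and its derivatives, a list chosen after these values were seen, summed to 48.6 CPM in D30 organoid 6, 15.1 in organoid 5 and 1.33 to 4.11 in the other 4 of D30. Most of the sum of organoid 5 was Apoa1 (7.96) and Apob (4.63), with Gata4, Sox17 and Afp at 0. In organoid 6, Afp, a secreted protein of yolk sac and fetal liver, was the most abundant at 11.5, and Gata4 and Sox17, transcription factors that define endoderm, were at 3.10 and 2.94 CPM. Apoa1 was lower in organoid 6 (5.60) than in organoid 5. Amn was at 0.333 in organoid 6, against 1.24 in organoid 4 and 0.400 in organoid 1. The other genes of the list were highest of D30 in organoid 6. The list stayed between 0.213 and 5.08 over all organoids of D20, D22 and D25. The part of these genes in the collagen IV and laminin values was not tested, and member calls that change without this organoid are named.

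**Figure D1:**
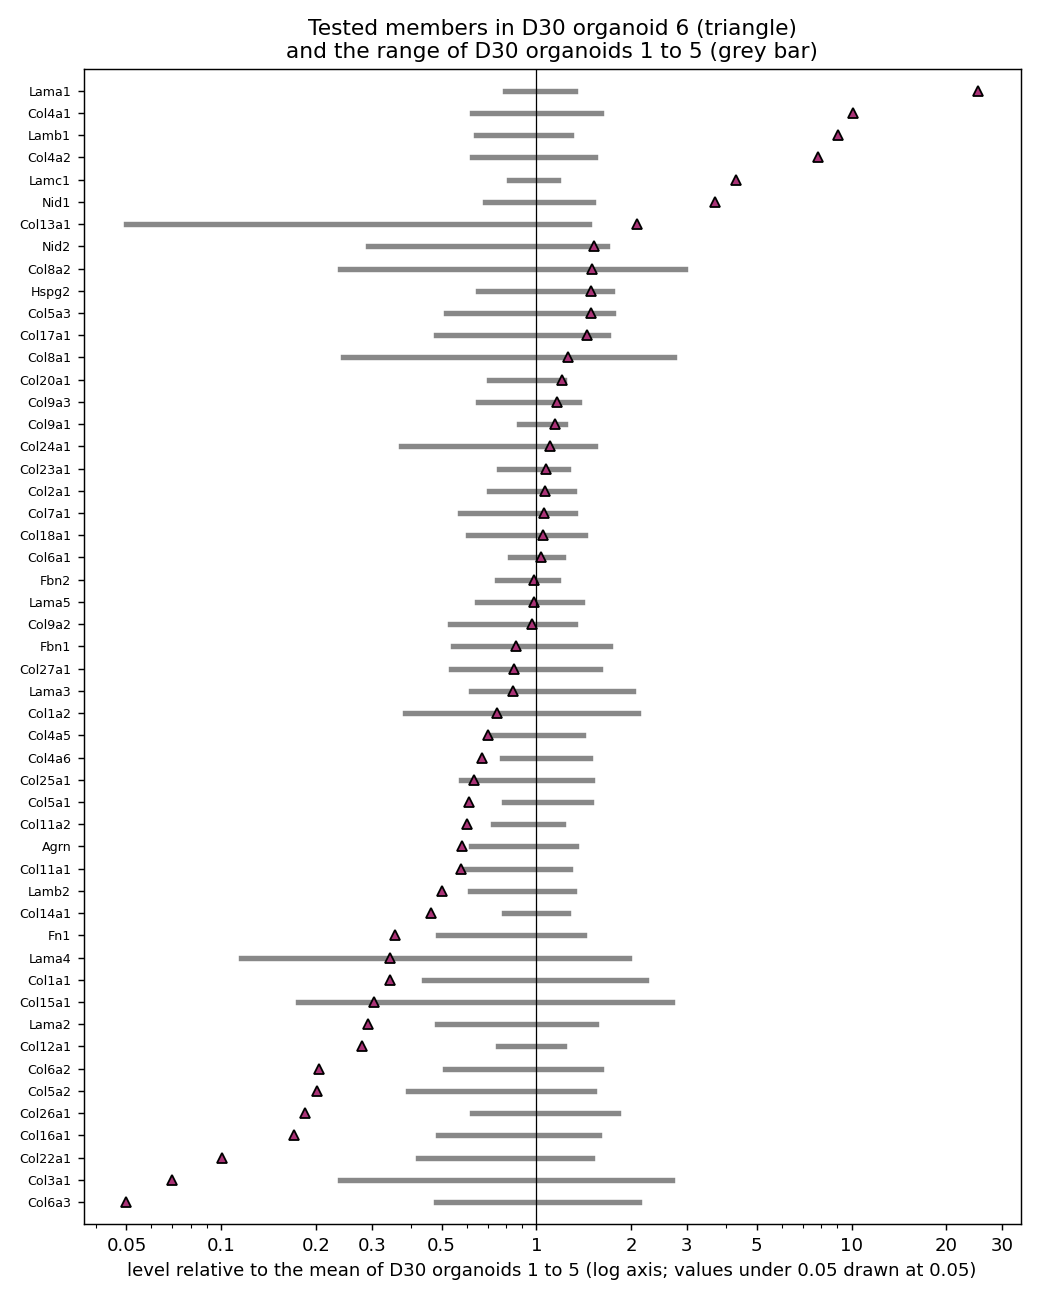
Ratio of D30 organoid 6 to the mean of D30 organoids 1 to 5 for each tested collagen, laminin and basement membrane gene, from normalized CPM on a log axis. Lama1, Col4a1, Lamb1, Col4a2, Lamc1 and Nid1 stand furthest above the line of equal level, and Col3a1, Col6a3, Col16a1 and Col22a1 are among those furthest below it.

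Averaged over the 24 organoids and divided by exon length, the most abundant members were collagen IX chains and agrin, in an order that differed between days. Col9a3 and Col9a1, chains of the fibril-associated collagen IX, were at 15.1 and 13.6 normalized CPM per kb, followed by the proteoglycan Agrn at 10.8. Col6a1, a chain of the microfibrillar collagen VI, was at 8.61, and the collagen IV chains Col4a2, Col4a5 and Col4a1 at 6.53, 6.47 and 5.98 per kb. The gamma chain Lamc1 (4.73), the multiplexin Col18a1 (4.34) and the fibrillin Fbn2 (3.96) closed the first 10 on this scale of level per length. At D20 Agrn was highest at 13.8 per kb, and Col9a1 went from 4.61 at D20 to 27.6 at D30. The averages of Col4a1, Col4a2 and Lamc1 include the high values of D30 organoid 6. 11 genes stayed under the filter, with summed counts over the 6 organoids of D20, D22, D25 and D30 of 28, 13, 34 and 125 for Col4a3, 15, 18, 58 and 105 for Col4a4, 5, 12, 52 and 177 for Col19a1, and 11, 22, 70 and 128 for Col10a1. Lower sums at D30 were those of Col6a4 (66), Col6a5 (45), Lamb3 (41), Lamc3 (18), Col28a1 (14) and Col6a6 (6 counts). Genes under the filter were not tested.

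Some counts are shared with other genes or cannot be separated from them. The library kit keeps the strand, but whether the counting used it is not given in the sources used here, so reads of a gene and of one on the opposite strand cannot be told apart. Exons of 16 members overlap a gene on the other strand and those of 3 overlap one on the same strand. Among tested members the longest overlaps are those of Fbn1 with Gm9913 over 2442 bases, Nid2 with Rtraf over 437, Fn1 with Apol7d over 292 and Col9a3 with Tcfl5 over 234, and Col4a1 and Col4a2 overlap each other by 22.

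The 4 timepoints were compared to ask how expression changes as MROs age in culture, and comparisons that name the same day share its organoids. A gene was called changed at an adjusted p below 0.01 in edgeR's quasi-likelihood test with Benjamini-Hochberg adjustment over 46949 features. From D20 to D22, 1 of the 51 tested members changed, a rise of the fibril-associated Col16a1, against 1.9% of all features (1.62% higher, 0.285% lower) and 3.32% of annotated genes. From D22 to D25, 8 members (15.7%) changed, 6 up and 2 down, against 5.28% of all features (3.08% higher, 2.19% lower) and 10.2% of annotated genes. From D25 to D30, 5 (9.80%) changed, 4 up and 1 down, against 3.51% (1.76% higher, 1.75% lower) and 7.38% of annotated genes. Over the whole span, D30 against D20, 27 of 51 (52.9%) changed, 21 up and 6 down, against 26.8% of all features (13.9% higher, 13% lower) and 41.8% of the tested annotated genes. In the joint test of the 4 timepoints 30 members (58.8%) passed, against 27.2% of features and 43.9% of annotated genes. The shares over all features depend on single organoids as well. That of the first step was 0.944% without D22 organoid 3, 1.06% without D20 organoid 1, 1.21% without D22 organoid 2 and 2.84% without D22 organoid 6, and that of the second step 3.37% without D22 organoid 1.

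The 51 members had median log2 fold changes of -0.23, 0.33 and 0.58 over the 3 successive steps and 0.93 for D30 against D20. Over all features the medians were 0.02, -0.05, -0.02 and -0.04, and over annotated genes -0.06, 0.10, 0.05 and 0.10. Members that rose were 5 fibrillar and 4 fibril-associated collagens, 3 other network collagens, 3 laminin chains, 2 collagen IV chains, the 2 nidogens, Col23a1 and Fbn1, while those that fell were Col17a1, Col2a1, Hspg2, Col6a1, Fbn2 and Agrn. The levels are of whole organoids, so fewer cells of a type and less RNA per cell cannot be told apart. Without D30 organoid 6, 28 members were called for D30 against D20, 20 up and 8 down, when Lamc1 and Nid2 missed the threshold and Col22a1, Col4a2 and Lama1 passed it, against 26.7% of all features in that fit. The joint test called 31 members without it, losing Col4a1 and gaining Col4a2 and Lama1. 23 of the 27 calls held when each of the 24 organoids was left out in turn.

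**Figure D2:**
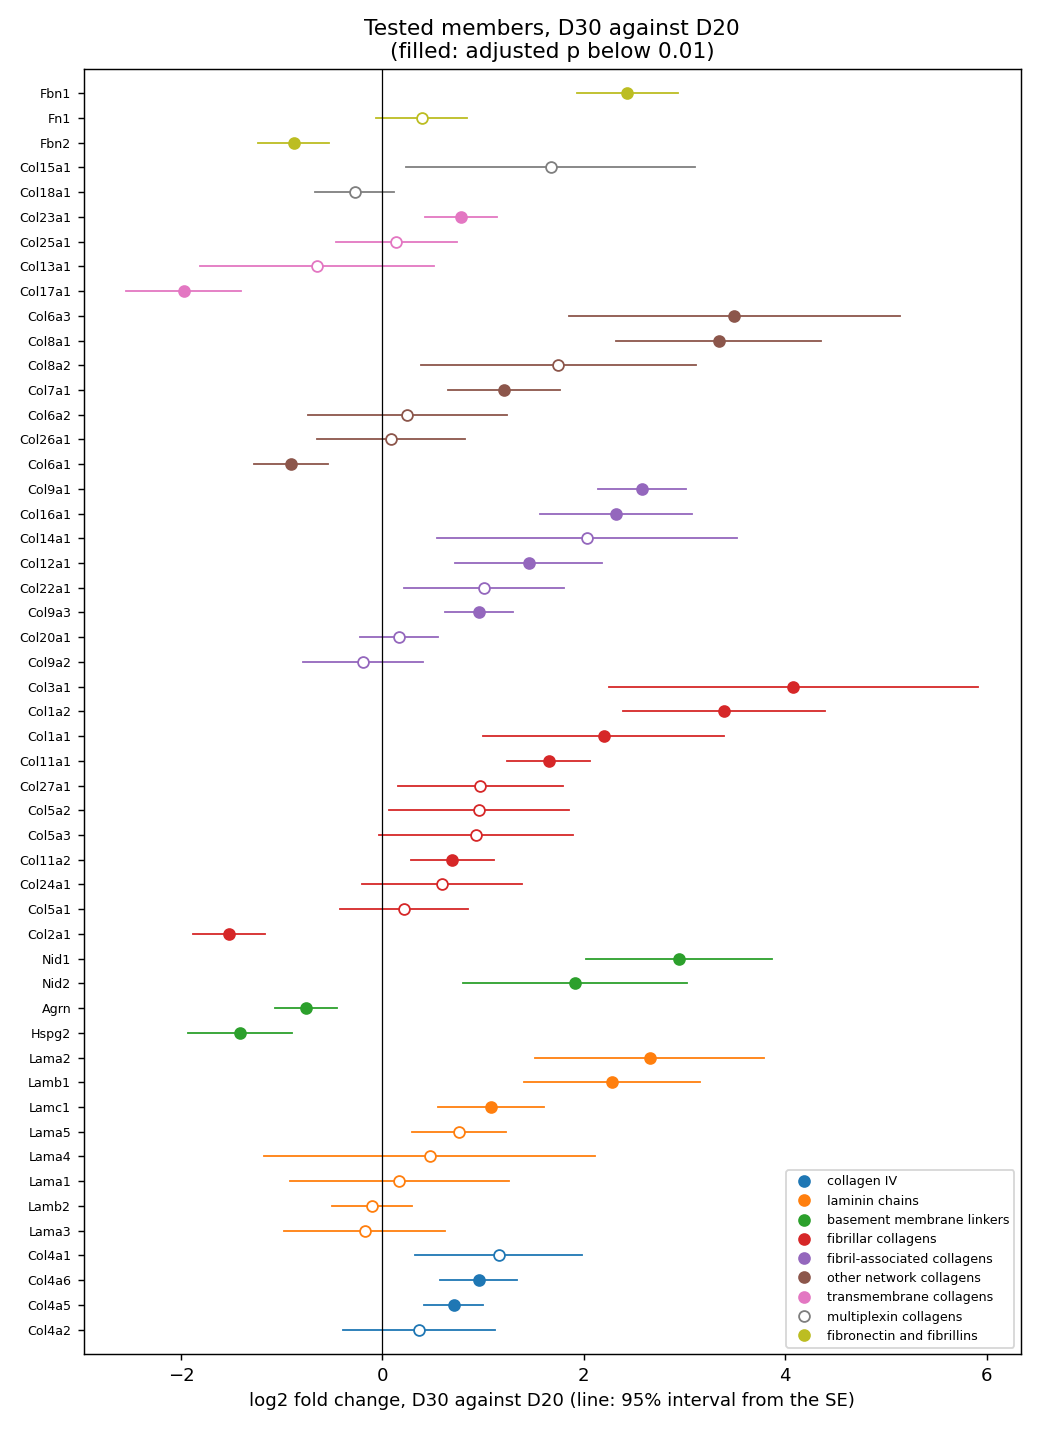
Log2 fold change of D30 against D20 for the 51 tested members, grouped by role. Points are estimates from 6 organoids per timepoint, bars are 95% intervals from the SE, and filled points passed the threshold of 0.01. Rises reach 4.08 in Col3a1 and falls -1.97 in Col17a1.

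Promoter sequence is shown for members that moved between D20 and D30, since genes that change together can be read side by side in it. 44 of the 62 members had an entry in the RefSeq promoter table of GRCm38.p6, with 49 windows of 250 bases before a start. Capitals mark 3 motifs searched on both strands. TATAAA is the first and reads TTTATA on the other strand, CCAAT is the second and reads ATTGG there, and GGGCGG is the third and reads CCGCCC there. Among all 32851 promoter windows 12.4% hold the first, 33.8% the second and 32.7% the third, and of the 49 windows of members 5, 15 and 29 do. The end of ATTGG can run into GGGCGG, which happens in none of the windows printed. A match is a description of letters and not a binding site. Col3a1 (chr1:45311288-45311537, plus strand) has TATAAA 117 bases before the start. Col11a1 (chr3:114030290-114030539, plus strand) has GGGCGG 110 and 19 and ATTGG 79 bases before it. Col9a1 (chr1:24177360-24177609, plus strand) and Col6a3 (chr1:90843972-90844221, minus strand) hold none of the motifs. Col4a6 (chrX:141474077-141474326, minus strand) has 1 match to the third motif and Col8a1 (chr16:57754738-57754987, minus strand) has 4. Agrn, which fell, has 2 starts. The window of the outer start (chr4:156197489-156197738, minus strand) holds 12 matches to the third motif and a GC content of 83.6%, and that of the inner start (chr4:156186260-156186509, minus strand) holds 2. Each is written 5′ to 3′ on the strand of its gene.
Col3a1: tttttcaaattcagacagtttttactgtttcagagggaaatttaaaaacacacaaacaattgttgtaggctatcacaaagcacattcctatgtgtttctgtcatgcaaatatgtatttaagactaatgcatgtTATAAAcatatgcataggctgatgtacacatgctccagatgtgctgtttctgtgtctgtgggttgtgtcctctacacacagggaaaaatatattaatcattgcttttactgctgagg
Col11a1: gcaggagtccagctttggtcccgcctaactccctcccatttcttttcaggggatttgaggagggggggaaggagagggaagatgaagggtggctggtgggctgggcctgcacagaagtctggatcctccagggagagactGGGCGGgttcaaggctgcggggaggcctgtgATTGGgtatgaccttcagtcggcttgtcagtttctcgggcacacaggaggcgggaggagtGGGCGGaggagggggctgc
Col9a1: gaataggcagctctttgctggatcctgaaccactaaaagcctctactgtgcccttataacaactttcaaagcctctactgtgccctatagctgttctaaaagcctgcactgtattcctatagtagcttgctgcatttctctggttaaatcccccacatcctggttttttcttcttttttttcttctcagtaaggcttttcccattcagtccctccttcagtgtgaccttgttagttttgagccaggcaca
Col4a6: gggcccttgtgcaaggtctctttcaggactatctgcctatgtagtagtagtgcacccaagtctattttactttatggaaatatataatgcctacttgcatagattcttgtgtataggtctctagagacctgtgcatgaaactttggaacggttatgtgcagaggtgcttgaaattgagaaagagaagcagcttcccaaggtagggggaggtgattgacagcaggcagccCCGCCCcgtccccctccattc
Col8a1: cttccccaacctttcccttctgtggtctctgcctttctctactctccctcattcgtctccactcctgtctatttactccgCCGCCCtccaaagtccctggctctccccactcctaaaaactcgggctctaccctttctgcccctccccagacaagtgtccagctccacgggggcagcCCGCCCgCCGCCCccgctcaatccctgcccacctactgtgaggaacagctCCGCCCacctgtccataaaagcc
Col6a3: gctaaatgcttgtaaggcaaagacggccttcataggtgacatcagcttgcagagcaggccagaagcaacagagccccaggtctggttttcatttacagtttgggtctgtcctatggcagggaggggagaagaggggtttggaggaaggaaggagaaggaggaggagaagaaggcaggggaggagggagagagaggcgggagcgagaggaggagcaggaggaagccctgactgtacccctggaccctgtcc
Agrn outer start: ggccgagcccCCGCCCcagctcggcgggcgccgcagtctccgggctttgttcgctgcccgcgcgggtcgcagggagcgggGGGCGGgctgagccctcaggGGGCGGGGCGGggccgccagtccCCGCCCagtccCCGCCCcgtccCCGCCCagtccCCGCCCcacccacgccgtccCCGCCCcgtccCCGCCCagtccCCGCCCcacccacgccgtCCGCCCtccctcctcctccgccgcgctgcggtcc
Agrn inner start: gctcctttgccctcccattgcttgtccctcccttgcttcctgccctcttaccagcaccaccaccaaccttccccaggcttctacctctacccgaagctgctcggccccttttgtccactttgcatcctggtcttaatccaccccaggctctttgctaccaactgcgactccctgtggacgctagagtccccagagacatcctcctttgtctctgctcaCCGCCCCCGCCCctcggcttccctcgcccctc

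Among collagen IV chains, the pair found in most basement membranes did not pass the test between D20 and D30 while the X-linked pair rose. Col4a1 and Col4a2 lie head to head on chromosome 8, Col4a3 and Col4a4 have starts 71 bases apart, and Col4a5 and Col4a6 have starts 1308 bases apart on the X chromosome. Col4a5 ranged from 32.1 to 41.0 (median 36.7) at D20, 33.2 to 40.0 (median 36.3) at D22, 28.1 to 52.2 (median 43.1) at D25 and 43.7 to 87.2 (median 51.1) at D30. The D30 organoids all lay above the D20 organoids, with organoids 1 and 5 highest. Col4a5 rose by 0.71 ± 0.15 (SE) on the log2 scale (edgeR quasi-likelihood test, Benjamini-Hochberg adjusted p = 0.00032). Col4a6, the chain that pairs with it in some basement membranes, ranged from 10.7 to 12.9 (median 11.5) at D20, 9.03 to 14.6 (median 11) at D22, 8.65 to 21.3 (median 13.9) at D25 and 15.9 to 35.2 (median 19.9) at D30, again without overlap of D20 and D30, and rose by 0.96 ± 0.20 (SE) on the log2 scale (edgeR quasi-likelihood test, Benjamini-Hochberg adjusted p = 0.000217). Its promoter is among those printed above.

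Col4a1 ranged from 31.4 to 47.2 (median 36.3) at D20, 23.6 to 34.7 (median 28.1) at D22, 20.8 to 31.8 (median 26.8) at D25 and 21.1 to 343 (median 32.6) at D30. Apart from D30 organoid 6 the ranges of the 4 days overlapped. Its log2 fold change of D30 against D20 was 1.16 ± 0.42 (SE), which did not pass (edgeR quasi-likelihood test, Benjamini-Hochberg adjusted p = 0.0306), and without D30 organoid 6 it was -0.18 on the log2 scale (edgeR quasi-likelihood test, Benjamini-Hochberg adjusted p = 0.444). Col4a1 passed when D30 organoid 3, the lowest of D30, was left out instead, with 1.36 on the log2 scale (edgeR quasi-likelihood test, Benjamini-Hochberg adjusted p = 0.00880). Col4a2 ranged from 33.4 to 69.4 (median 50.5) at D20, 22.7 to 45.0 (median 31.5) at D22, 19.1 to 32.7 (median 24.2) at D25 and 18.9 to 237 (median 30.2) at D30, with the highest organoid of D30 far from the other 5. With that organoid the change was 0.36 ± 0.38 (SE) and did not pass (edgeR quasi-likelihood test, Benjamini-Hochberg adjusted p = 0.494). Without it Col4a2 changed by -0.73 on the log2 scale (edgeR quasi-likelihood test, Benjamini-Hochberg adjusted p = 0.00336). The summed collagen IV level was 112 to 172 (median 131) at D20, 91.7 to 126 (median 109) at D22, 82.9 to 135 (median 105) at D25 and 109.8 to 642 (median 151) at D30, with a D30 mean of 152 in organoids 1 to 5.

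Of 8 tested laminin chains 3 (37.5%) rose between D20 and D30 and none fell while D30 organoid 6 was included, against 41.8% of annotated genes called in either direction. Lama1, found with early neuroepithelium and Reichert's membrane, ranged from 36.9 to 54.2 (median 46.6) at D20, 23.1 to 34.9 (median 31.0) at D22, 14.9 to 19.0 (median 18.2) at D25 and 8.11 to 257 (median 9.96) at D30. It was lower at each later day in all but 1 organoid: D20 and D22 did not overlap, nor did D22 and D25, and at D30 organoids 1 to 5 lay under every D25 value while organoid 6 lay above every other organoid. In the fit of all 24 organoids no Lama1 comparison passed, D30 against D20 being 0.17 ± 0.55 (SE) (edgeR quasi-likelihood test, Benjamini-Hochberg adjusted p = 0.844). Without D30 organoid 6, Lama1 fell in every step, with -0.63 on the log2 scale (edgeR quasi-likelihood test, Benjamini-Hochberg adjusted p = 0.00310) from D20 to D22. The next step, to D25, was -0.74 on the log2 scale (edgeR quasi-likelihood test, Benjamini-Hochberg adjusted p = 0.000288), and the last -0.80 on the log2 scale (edgeR quasi-likelihood test, Benjamini-Hochberg adjusted p = 0.000298). Over the whole span it was -2.16 on the log2 scale (edgeR quasi-likelihood test, Benjamini-Hochberg adjusted p = 6.35e-13). Fits of only the 2 timepoints compared, with all their organoids, also called Lama1 lower in the steps to D22 and to D25, but not in the other 2 comparisons.

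The beta chain Lamb1 ranged from 9.25 to 18.2 (median 14.7) at D20, 10.3 to 19.1 (median 15.1) at D22, 13.5 to 40.0 (median 22.3) at D25 and 19.0 to 267 (median 33.7) at D30. Every D30 organoid lay above every D20 organoid, also without organoid 6. Lamb1 rose by 2.28 ± 0.45 (SE) on the log2 scale (edgeR quasi-likelihood test, Benjamini-Hochberg adjusted p = 0.000139), and without organoid 6 by 1.05 on the log2 scale (edgeR quasi-likelihood test, Benjamini-Hochberg adjusted p = 0.000604). The gamma chain Lamc1, shared by most laminins, ranged from 21.7 to 39.0 (median 32.1) at D20, 21.4 to 33.4 (median 26.1) at D22, 28.2 to 37.3 (median 30.7) at D25 and 35.0 to 183 (median 44.8) at D30 and rose by 1.08 ± 0.27 (SE) on the log2 scale (edgeR quasi-likelihood test, Benjamini-Hochberg adjusted p = 0.00196). That call rested on organoid 6, without which it was 0.45 on the log2 scale (edgeR quasi-likelihood test, Benjamini-Hochberg adjusted p = 0.0120), above the threshold of 0.01. The Lamc1 call was also lost when only the timepoints compared were fitted, with all their organoids. Lama2, the alpha chain of laminin-211 in muscle and glial basement membranes, ranged from 0 to 1.79 (median 0.601) at D20, 0 to 1.01 (median 0.718) at D22, 2.08 to 5.98 (median 4.04) at D25 and 1.72 to 9.08 (median 4.34) at D30. All D25 organoids lay above all D22 organoids. Lama2 rose from D22 to D25 by 2.61 ± 0.59 (SE) on the log2 scale (edgeR quasi-likelihood test, Benjamini-Hochberg adjusted p = 0.00368), a call lost without D22 organoid 1 or D25 organoid 4 (highest adjusted p 0.0116 in the same edgeR quasi-likelihood test with Benjamini-Hochberg adjustment). With replicate number as a block Lama2 lost this call as well. For D30 against D20 it rose by 2.65 ± 0.58 (SE) on the log2 scale (edgeR quasi-likelihood test, Benjamini-Hochberg adjusted p = 0.000475). Lama4, the chain of vessel walls, ranged from 0 to 4.37 CPM, with D25 organoid 4 the highest of the 24, and passed in no comparison. Lamb2, named after its values were seen, had a change from D25 to D30 of 0.69 ± 0.21 (SE) on the log2 scale (edgeR quasi-likelihood test, Benjamini-Hochberg adjusted p = 0.0362). It passed without D30 organoid 6, with 0.82 on the log2 scale (edgeR quasi-likelihood test, Benjamini-Hochberg adjusted p = 0.00606), and in the DESeq2 test of all organoids.

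**Figure D3:**
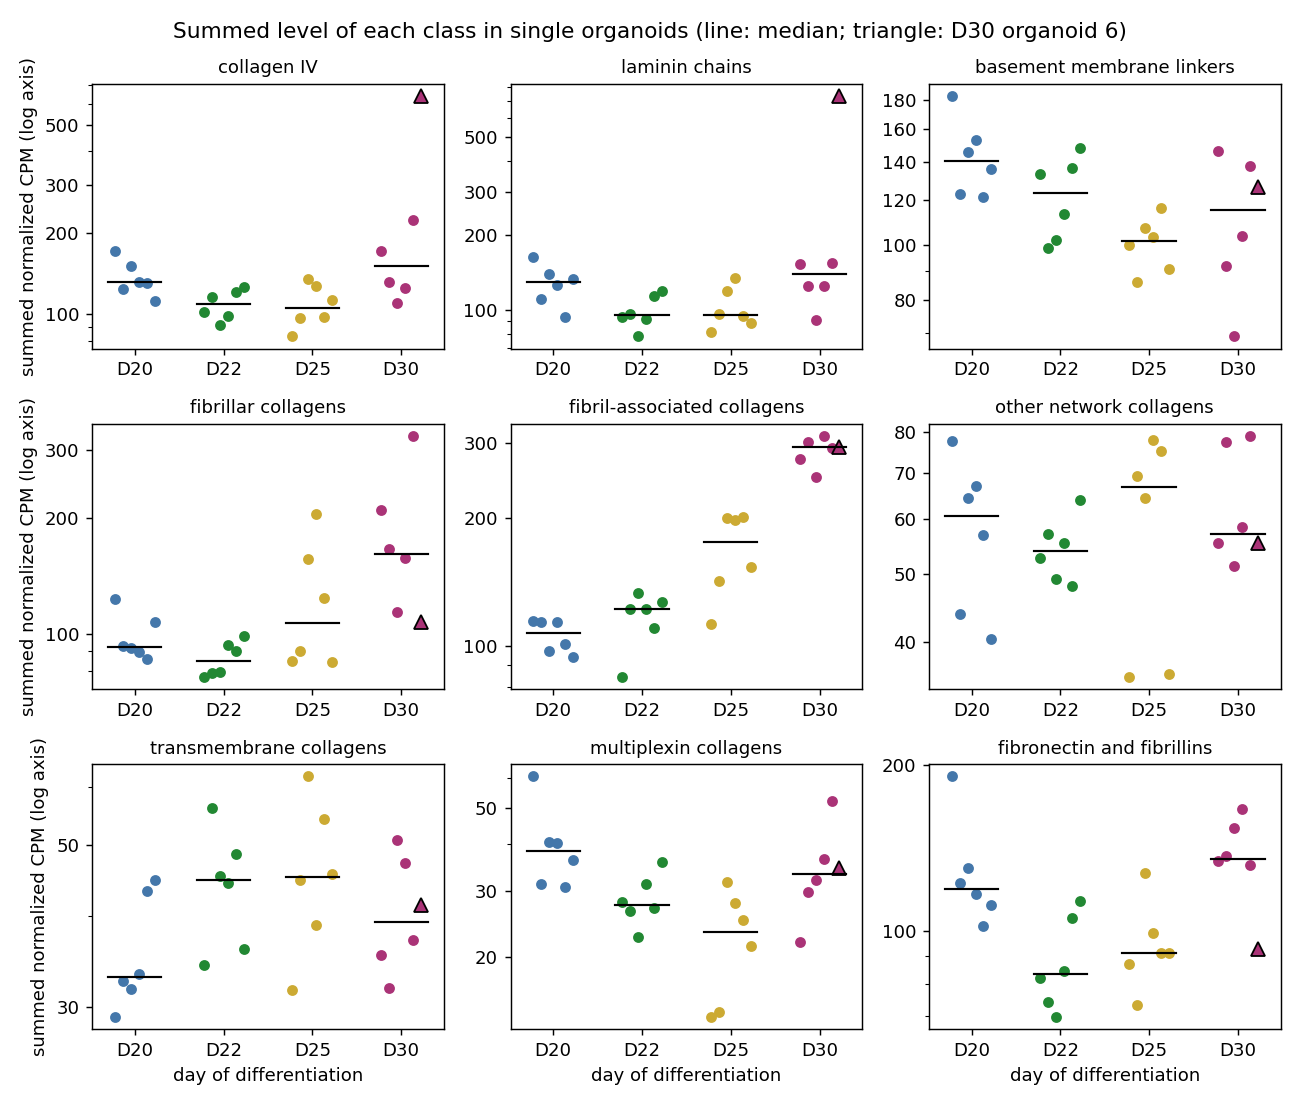
Summed normalized CPM of the members of each role class in each of the 24 organoids, by day in culture, on a log axis. D30 organoid 6 lies at 642 for collagen IV and 736 for laminin chains, against at most 224 and 164 in any other organoid, and the fibril-associated collagens of all D30 organoids lie at 250.2 or more.

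All 4 linkers of the basement membrane changed between D20 and D30, against 41.8% of annotated genes, the nidogens up and the proteoglycans down. Nid1 binds laminin to collagen IV. It ranged from 1.42 to 5.03 (median 3.32) at D20, 0.279 to 3.59 (median 1.41) at D22, 2.72 to 15.0 (median 4.99) at D25 and 11.7 to 62.5 (median 17.8) at D30, and all D30 organoids lay above all D20 organoids, with D30 organoid 6 the highest of all. Nid1 rose by 2.94 ± 0.47 (SE) on the log2 scale (edgeR quasi-likelihood test, Benjamini-Hochberg adjusted p = 8.43e-06), and without organoid 6 by 2.41 on the log2 scale (edgeR quasi-likelihood test, Benjamini-Hochberg adjusted p = 3.86e-05). It also rose from D22 to D25 by 1.99 ± 0.49 (SE) on the log2 scale (edgeR quasi-likelihood test, Benjamini-Hochberg adjusted p = 0.00664), lost without D22 organoids 1, 2, 3, 4 or 5 or D25 organoids 3 or 4 (highest adjusted p 0.0394 in edgeR's quasi-likelihood test with Benjamini-Hochberg adjustment). The rise from D25 to D30 was 1.99 ± 0.45 (SE) on the log2 scale (edgeR quasi-likelihood test, Benjamini-Hochberg adjusted p = 0.00422), lost without D25 organoids 1, 2, 3, 5 or 6 or D30 organoid 6 (highest adjusted p 0.0227 in that test with Benjamini-Hochberg adjustment). Nid1 also lost the D22 to D25 call with annotated genes only, and the D25 to D30 call with only the timepoints compared. Its relative Nid2 ranged from 0.640 to 4.82 (median 2.16) at D20 and 2.27 to 13.0 (median 10.4) at D30, ranges that overlap. Nid2 rose by 1.91 ± 0.57 (SE) on the log2 scale (edgeR quasi-likelihood test, Benjamini-Hochberg adjusted p = 0.00819), a call lost without D20 organoids 2, 3, 4, 5 or 6 or D30 organoids 1, 2, 5 or 6 (highest adjusted p 0.0221 in edgeR's quasi-likelihood test with Benjamini-Hochberg adjustment). The Nid2 call was also lost with annotated genes only and with replicate number as a block.

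Hspg2, which encodes perlecan, ranged from 7.82 to 12.4 (median 10.3) at D20, 5.20 to 14.1 (median 8.12) at D22, 2.14 to 5.93 (median 3.70) at D25 and 2.27 to 6.07 (median 3.08) at D30. D20 and D30 did not overlap, while D22 and D25 did, through D25 organoids 3 and 5. Hspg2 fell from D22 to D25, at -1.08 ± 0.26 (SE) on the log2 scale (edgeR quasi-likelihood test, Benjamini-Hochberg adjusted p = 0.00629), a call lost without D22 organoids 1, 4 or 6 or D25 organoids 1, 2, 4 or 6 (highest adjusted p 0.0293 in edgeR's quasi-likelihood test with Benjamini-Hochberg adjustment), and for D30 against D20 the value was -1.41 ± 0.26 (SE) on the log2 scale (edgeR quasi-likelihood test, Benjamini-Hochberg adjusted p = 6.98e-05). The D22 to D25 call was also lost with replicate number as a block and with only the timepoints compared. Agrn, the proteoglycan of the inner limiting membrane and the neuromuscular synapse, ranged from 108 to 161 (median 125) at D20, 90.2 to 127 (median 113) at D22, 74.3 to 102 (median 86.2) at D25 and 47.3 to 109 (median 75.7) at D30. D30 organoid 1 just reached the lowest D20 value, and the other 5 D30 organoids lay under the D20 range. Agrn fell by 0.76 ± 0.16 (SE) on the log2 scale (edgeR quasi-likelihood test, Benjamini-Hochberg adjusted p = 0.000242). Both of its promoter windows are printed above.

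**Figure D4:**
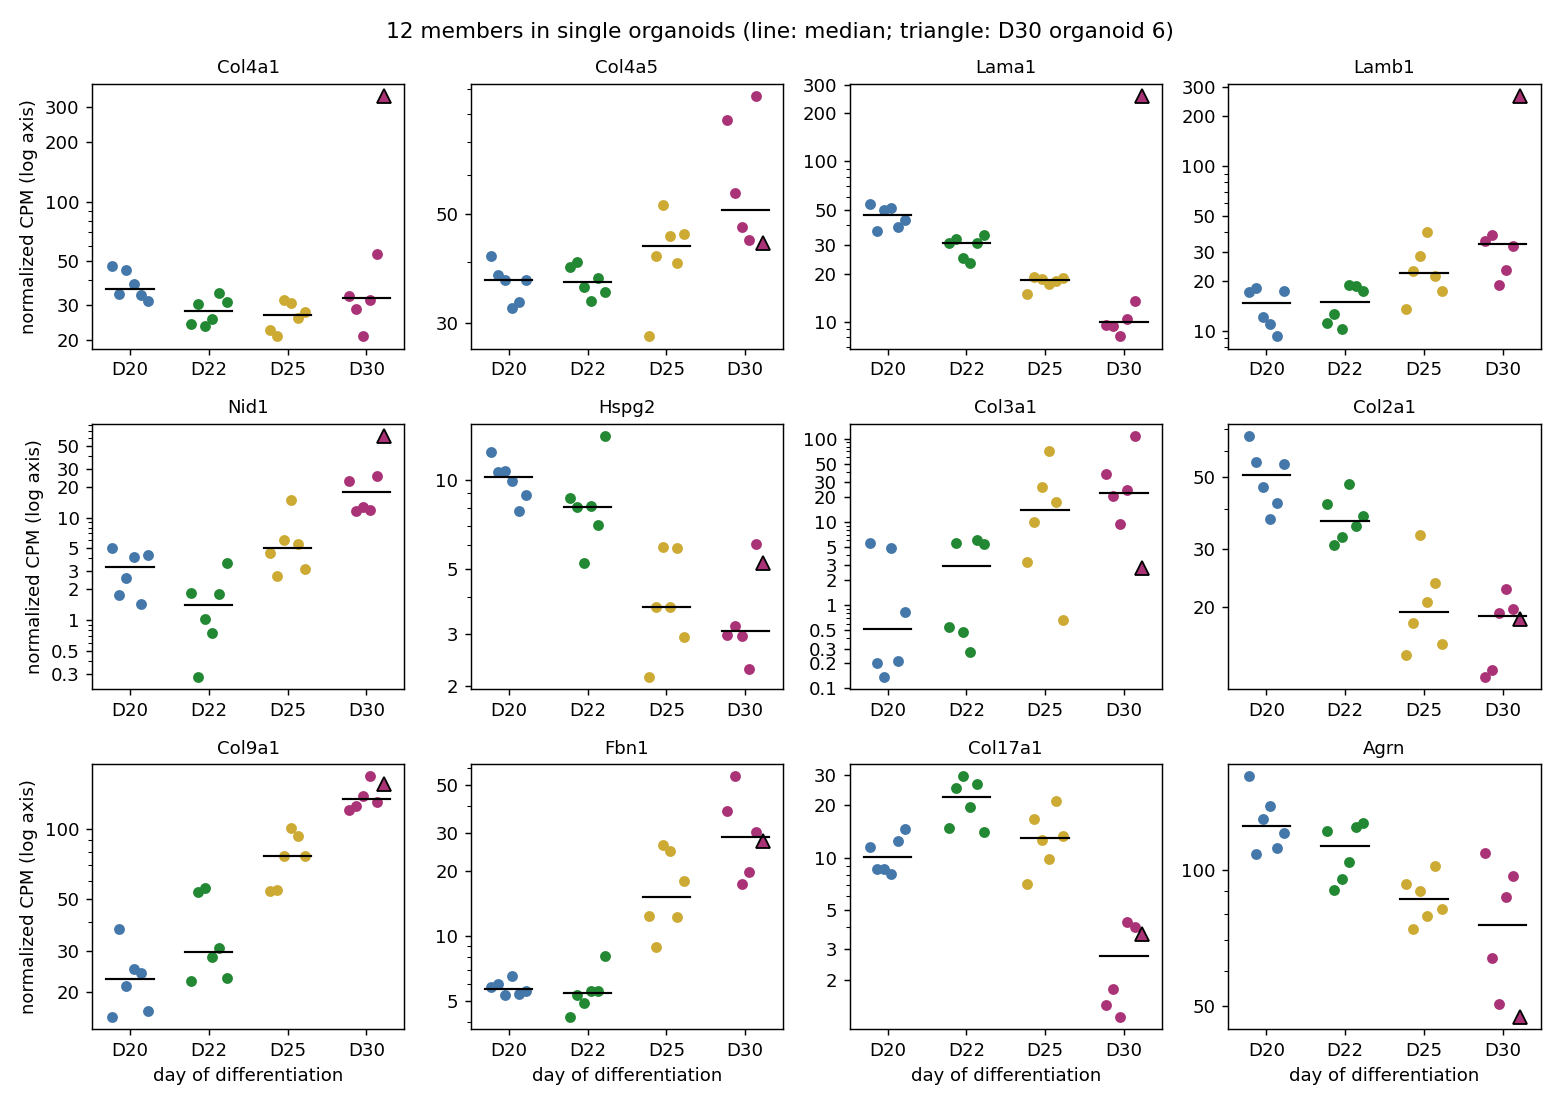
Normalized CPM of 12 members in each of the 24 organoids by day in culture, on log axes, with 1 point per organoid and the median of 6 as a line. Col9a1 and Fbn1 lie higher and Col2a1 and Hspg2 lower at D30 than in any D20 organoid, and single high points at D30 in Col4a1, Lama1, Lamb1 and Nid1 are organoid 6.

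Of 11 fibrillar collagens 5 rose and 1 fell between D20 and D30 (54.5%, against 41.8% of annotated genes). Col3a1, of stroma and vessel walls, ranged from 0.138 to 5.59 (median 0.523) at D20, 0.274 to 6.11 (median 2.97) at D22, 0.671 to 70.9 (median 13.8) at D25 and 2.77 to 107 (median 22.3) at D30. D25 organoid 4 and D30 organoid 5 were far above the rest of their day, and D20 and D30 overlapped. Col3a1 rose by 4.08 ± 0.94 (SE) on the log2 scale (edgeR quasi-likelihood test, Benjamini-Hochberg adjusted p = 0.000812), with a 95% interval of 2.25 to 5.91. With 1 organoid left out in turn, this rise ranged from 3.25 to 4.72 on the log2 scale. Col1a2, a chain of collagen I, ranged from 0.940 to 5.10 (median 1.81) at D20, 1.04 to 6.72 (median 2.59) at D22, 2.87 to 27.3 (median 11.9) at D25 and 10.5 to 57.5 (median 22.3) at D30, and every D30 organoid lay above every D20 organoid. It rose by 3.39 ± 0.51 (SE) on the log2 scale (edgeR quasi-likelihood test, Benjamini-Hochberg adjusted p = 3.35e-06), and from D22 to D25 by 2.26 ± 0.49 (SE) on the log2 scale (edgeR quasi-likelihood test, Benjamini-Hochberg adjusted p = 0.00266). The earlier call was lost without D22 organoid 1 or D25 organoid 4 (highest adjusted p 0.0118 in edgeR's quasi-likelihood test with Benjamini-Hochberg adjustment). Col1a1, the other chain, was at 0.320 to 3.36 (median 1.01) at D20 and 2.66 to 17.3 (median 4.57) at D30 and rose by 2.2 ± 0.61 (SE) on the log2 scale (edgeR quasi-likelihood test, Benjamini-Hochberg adjusted p = 0.00485), lost without D20 organoids 2, 3, 5 or 6 or D30 organoid 5 (highest adjusted p 0.0293 in the edgeR test with Benjamini-Hochberg adjustment).

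Among collagens of cartilage and vitreous, Col2a1 fell and Col11a1 rose between D20 and D30. Col2a1, the main fibril collagen of both, ranged from 37.3 to 66.7 (median 50.7) at D20, 31.1 to 47.5 (median 36.6) at D22, 14.3 to 33.2 (median 19.3) at D25 and 12.2 to 22.8 (median 18.8) at D30, and D20 and D30 did not overlap. Col2a1 fell from D22 to D25, at -0.85 ± 0.18 (SE) on the log2 scale (edgeR quasi-likelihood test, Benjamini-Hochberg adjusted p = 0.00211), and over the whole span it was -1.53 ± 0.18 (SE) on the log2 scale (edgeR quasi-likelihood test, Benjamini-Hochberg adjusted p = 7.71e-08). Col11a1, which sets fibril width together with collagen II, ranged from 10.5 to 25.6 (median 20.2) at D20, 14.4 to 22.1 (median 17.7) at D22, 16.4 to 37.3 (median 30.6) at D25 and 37.1 to 82.2 (median 61.9) at D30, with all D30 organoids above all D20 organoids. It rose from D25 to D30 by 1.04 ± 0.20 (SE) on the log2 scale (edgeR quasi-likelihood test, Benjamini-Hochberg adjusted p = 0.00110) and for D30 against D20 by 1.65 ± 0.21 (SE) on the log2 scale (edgeR quasi-likelihood test, Benjamini-Hochberg adjusted p = 1.89e-07). Col11a2, a further collagen XI chain, was at 7.06 to 11.3 (median 10.2) at D20 and 10.1 to 20.4 (median 15.9) at D30. Its rise of 0.69 ± 0.21 (SE) on the log2 scale (edgeR quasi-likelihood test, Benjamini-Hochberg adjusted p = 0.00967) lay close to the threshold and was lost in 16 of 24 refits, those without D20 organoids 1, 2, 3, 4, 5 or 6, D22 organoids 1, 2 or 4, D25 organoids 3, 4, 5 or 6 or D30 organoids 1, 4 or 5 (highest adjusted p 0.0295 in edgeR's quasi-likelihood test with Benjamini-Hochberg adjustment). The Col11a2 call was also lost with filterByExpr and with annotated genes only.

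Fibril-associated collagens, which sit on the surface of other fibrils, held 4 rises among 8 tested members and no fall (50%, against 41.8% of annotated genes). Col9a1 ranged from 15.7 to 37.2 (median 22.9) at D20, 22.4 to 55.8 (median 29.7) at D22, 54.5 to 101 (median 76.5) at D25 and 120.2 to 168 (median 135) at D30. All D30 organoids lay above all D25 organoids, and these above all but 1 of the D22 organoids and all of D20. Its rise for D30 against D20 was 2.58 ± 0.22 (SE) on the log2 scale (edgeR quasi-likelihood test, Benjamini-Hochberg adjusted p = 1.15e-10). From D22 to D25 it rose by 1.09 ± 0.21 (SE) on the log2 scale (edgeR quasi-likelihood test, Benjamini-Hochberg adjusted p = 0.000912), and from D25 to D30 by 0.88 ± 0.21 (SE) on the log2 scale (edgeR quasi-likelihood test, Benjamini-Hochberg adjusted p = 0.00761). The last step was lost without D25 organoids 1, 2, 3 or 6 or D30 organoids 2, 3, 4, 5 or 6 (highest adjusted p 0.0264 in edgeR's quasi-likelihood test with Benjamini-Hochberg adjustment). Col9a3, a partner chain, ranged from 38.4 to 52.0 (median 45.7) at D20, 31.8 to 53.0 (median 42.7) at D22, 29.9 to 79.5 (median 52.5) at D25 and 56.6 to 118 (median 91.5) at D30, without overlap of D20 and D30. It rose by 0.96 ± 0.17 (SE) on the log2 scale (edgeR quasi-likelihood test, Benjamini-Hochberg adjusted p = 4.24e-05), and from D25 to D30 by 0.71 ± 0.17 (SE) on the log2 scale (edgeR quasi-likelihood test, Benjamini-Hochberg adjusted p = 0.00745), the latter lost without D25 organoids 1, 2, 4 or 6 or D30 organoids 1, 2, 5 or 6 (highest adjusted p 0.0286 in the edgeR test with Benjamini-Hochberg adjustment). That D25 to D30 call was also lost with filterByExpr, with replicate number as a block and with only the timepoints compared. The remaining chain Col9a2 was at 7.19 to 17.7 (median 16.6) at D20 and 6.72 to 16.7 (median 12.7) at D30 and passed in no comparison.

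Col16a1, a collagen near basement membranes and fibrils, ranged from 0.576 to 2.02 (median 1.26) at D20, 2.45 to 6.62 (median 4.05) at D22, 3.17 to 5.03 (median 4.18) at D25 and 1.27 to 11.8 (median 6.33) at D30. D20 and D22 did not overlap, and at D30 organoid 6 fell back into the D20 range. It rose from D20 to D22 by 1.73 ± 0.39 (SE) on the log2 scale (edgeR quasi-likelihood test, Benjamini-Hochberg adjusted p = 0.00649), a call lost without D20 organoids 1, 3, 4, 5 or 6 or D22 organoids 3, 4 or 5 (highest adjusted p 0.0239 in edgeR's quasi-likelihood test with Benjamini-Hochberg adjustment). For D30 against D20 it rose by 2.32 ± 0.39 (SE) on the log2 scale (edgeR quasi-likelihood test, Benjamini-Hochberg adjusted p = 1.47e-05). Col12a1, a collagen of dense connective tissue, was at 3.29 to 20.5 (median 4.96) at D20 and 6.26 to 27.5 (median 21.2) at D30 and rose by 1.45 ± 0.37 (SE) on the log2 scale (edgeR quasi-likelihood test, Benjamini-Hochberg adjusted p = 0.00247). D20 organoid 4, at 20.5, reached into the D30 range. The other D20 organoids lay at 5.69 or under, below every D30 organoid. Col14a1, of similar sites, was at 0 to 2.45 (median 0.162) at D20 and 1.22 to 3.31 (median 2.50) at D30, with a change of 2.03 ± 0.76 (SE) that did not pass (edgeR quasi-likelihood test, Benjamini-Hochberg adjusted p = 0.0350). Without D20 organoid 1, the highest of D20, it passed at 3.44 on the log2 scale (edgeR quasi-likelihood test, Benjamini-Hochberg adjusted p = 0.00110). The D20 median of Col14a1 lay under the floor of 0.166 to 0.216 CPM, so the size of this change is uncertain.

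Other network-forming and beaded collagens held 3 rises and 1 fall among 7 tested members (57.1%, against 41.8% of annotated genes). Col8a1, a short-chain collagen of Descemet's membrane and vessels, ranged from 0.462 to 2.03 (median 0.861) at D20, 0.0698 to 1.3 (median 0.512) at D22, 0.811 to 5.64 (median 3.12) at D25 and 2.48 to 27.8 (median 7.64) at D30. Every D30 organoid lay above every D20 organoid, and D30 organoids 2 and 6 were highest. Col8a1 rose by 3.34 ± 0.52 (SE) on the log2 scale (edgeR quasi-likelihood test, Benjamini-Hochberg adjusted p = 5.47e-06), and from D22 to D25 by 2.46 ± 0.54 (SE) on the log2 scale (edgeR quasi-likelihood test, Benjamini-Hochberg adjusted p = 0.00300). The latter call was lost without D22 organoid 5 or D25 organoid 4 (highest adjusted p 0.0113 in edgeR's quasi-likelihood test with Benjamini-Hochberg adjustment). Its partner Col8a2 was at 0.128 to 2.80 (median 0.734) at D20 and 0.894 to 11.2 (median 2.63) at D30, highest in the same D30 organoids 2 and 6, with a change of 1.75 ± 0.70 (SE) that did not pass (edgeR quasi-likelihood test, Benjamini-Hochberg adjusted p = 0.0475).

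The collagen VI chains, which form beaded microfilaments around cells, went different ways. Col6a3 ranged from 0 to 1.98 (median 0.346) at D20, 0 to 2.44 (median 0.469) at D22, 0.305 to 5.37 (median 1.85) at D25 and 0.333 to 15.9 (median 4.71) at D30, overlapping throughout, and was lowest at D30 in organoid 6. It rose by 3.5 ± 0.84 (SE) on the log2 scale (edgeR quasi-likelihood test, Benjamini-Hochberg adjusted p = 0.00128). With 1 organoid left out in turn, the rise of Col6a3 ranged from 2.97 to 4.55 on the log2 scale. Col6a1 ranged from 34.5 to 59.0 (median 47.3) at D20, 36.8 to 51.2 (median 41.6) at D22, 20.7 to 54.0 (median 43.4) at D25 and 19.8 to 29.2 (median 23.8) at D30, with every D30 organoid under every D20 organoid, and fell by 0.91 ± 0.19 (SE) on the log2 scale (edgeR quasi-likelihood test, Benjamini-Hochberg adjusted p = 0.000233). Col6a2 was at 0.832 to 4.82 (median 1.96) at D20 and 0.610 to 4.77 (median 2.27) at D30 and passed in no comparison. Col7a1, the anchoring fibril collagen, was at 1.22 to 5.92 (median 3.70) at D20 and 4.57 to 10.6 (median 8.62) at D30 and rose by 1.21 ± 0.28 (SE) on the log2 scale (edgeR quasi-likelihood test, Benjamini-Hochberg adjusted p = 0.00101), with overlap.

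The multiplexin Col18a1, whose fragment is endostatin and which lies in the inner limiting membrane, ranged from 29.9 to 60.1 (median 37.6) at D20, 22.3 to 35.3 (median 27.3) at D22, 13.1 to 31.0 (median 22.7) at D25 and 19.5 to 45.8 (median 32.1) at D30. Days overlapped, D20 organoid 1 stood highest, and D30 against D20 did not pass, at -0.28 ± 0.20 (SE) (edgeR quasi-likelihood test, Benjamini-Hochberg adjusted p = 0.289). The related Col15a1 stayed at 6.33 CPM or under, reached in D30 organoid 5, and its change of 1.67 ± 0.73 (SE) did not pass (edgeR quasi-likelihood test, Benjamini-Hochberg adjusted p = 0.0730). Of the membrane-spanning collagens Col17a1, of hemidesmosomes, ranged from 8.11 to 14.5 (median 10.1) at D20, 14.1 to 29.3 (median 22.3) at D22, 7.06 to 21.2 (median 13.0) at D25 and 1.22 to 4.27 (median 2.72) at D30. Its median was highest at D22, and all D30 organoids lay under all organoids of the other days. The rise from D20 to D22 was not called with the reported settings. It was called under the DESeq2 test, with no filter on low counts and with only the timepoints compared. Over all alternatives its log2 fold change in that step was 0.90 to 1.13. From D25 to D30 Col17a1 fell by 2.31 ± 0.29 (SE) on the log2 scale (edgeR quasi-likelihood test, Benjamini-Hochberg adjusted p = 2.8e-06), and D30 against D20 was -1.97 ± 0.29 (SE) on the log2 scale (edgeR quasi-likelihood test, Benjamini-Hochberg adjusted p = 2.52e-06). Col23a1, another of that class, was at 11.7 to 21.9 (median 17.7) at D20 and 22.3 to 37.1 (median 29.7) at D30, without overlap, and rose by 0.78 ± 0.18 (SE) on the log2 scale (edgeR quasi-likelihood test, Benjamini-Hochberg adjusted p = 0.00104).

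The fibrillins, which form the microfibrils of the zonule and of elastic tissue, moved apart. Fbn1 ranged from 5.36 to 6.53 (median 5.69) at D20, 4.23 to 8.12 (median 5.49) at D22, 8.92 to 26.5 (median 15.3) at D25 and 17.4 to 54.8 (median 28.9) at D30. All D25 organoids lay above all of D22, and all D30 organoids above all of D20. It rose from D22 to D25 by 1.61 ± 0.25 (SE) on the log2 scale (edgeR quasi-likelihood test, Benjamini-Hochberg adjusted p = 9.25e-05), and for D30 against D20 by 2.43 ± 0.26 (SE) on the log2 scale (edgeR quasi-likelihood test, Benjamini-Hochberg adjusted p = 5.95e-09). The overlap with Gm9913 on the other strand means that these reads cannot be fully assigned to it. Fbn2, the fibrillin of earlier development, ranged from 53.2 to 114 (median 69.1) at D20, 39.8 to 70.3 (median 49.6) at D22, 27.4 to 64.0 (median 40.0) at D25 and 30.0 to 46.9 (median 39.7) at D30, with D20 organoid 1 highest, and all D30 organoids lay under all D20 organoids. It fell by 0.88 ± 0.18 (SE) on the log2 scale (edgeR quasi-likelihood test, Benjamini-Hochberg adjusted p = 0.000236). Fn1, which encodes fibronectin, ranged from 33.4 to 70.4 (median 46.8) at D20, 23.2 to 36.9 (median 29.5) at D22, 27.1 to 47.1 (median 34.0) at D25 and 25.8 to 102 (median 63.7) at D30, with D30 spread on both sides of D20, and D30 against D20 was 0.39 ± 0.23 (SE) and did not pass (edgeR quasi-likelihood test, Benjamini-Hochberg adjusted p = 0.190). From D25 to D30 Fn1 did not pass either, at 0.88 ± 0.23 (SE) on the log2 scale (edgeR quasi-likelihood test, Benjamini-Hochberg adjusted p = 0.0151), but without D30 organoid 6 it did, with 1.05 on the log2 scale (edgeR quasi-likelihood test, Benjamini-Hochberg adjusted p = 0.000757). It also passed without D25 organoid 1 or D30 organoid 2 (adjusted p 0.00837 and 0.00489 in edgeR's quasi-likelihood test with Benjamini-Hochberg adjustment), in the DESeq2 test and with no filter on low counts.

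Genes that make, bind or break down matrix were taken from 4 lists of 144 genes, 124 of them tested. For D30 against D20, 85 of the 124 (68.5%) were called, 65 up and 20 down, against 26.8% of all features and 41.8% of annotated genes, with a median log2 fold change of 1.07. Collagen-making enzymes held 9 rises and 9 falls among 28 tested (64.3% called). P4ha3, a collagen prolyl hydroxylase subunit, was at 0 to 0.605 (median 0.131) at D20 and 0.499 to 11.4 (median 2.78) at D30 and rose by 4.42 ± 0.84 (SE) on the log2 scale (edgeR quasi-likelihood test, Benjamini-Hochberg adjusted p = 8.5e-05). The D20 median of P4ha3 lay under the floor of 0.166 to 0.216 CPM, so the size of this rise is uncertain. Pcolce2, an enhancer of procollagen processing, was at 0 to 0.909 (median 0.632) at D20 and 2.75 to 7.82 (median 6.00) at D30, without overlap, and rose by 3.45 ± 0.52 (SE) on the log2 scale (edgeR quasi-likelihood test, Benjamini-Hochberg adjusted p = 3.52e-06). Plod2, a lysyl hydroxylase, was at 231 to 288 (median 261) at D20 and 65.5 to 114 (median 85.3) at D30, without overlap, and fell by 1.56 ± 0.23 (SE) on the log2 scale (edgeR quasi-likelihood test, Benjamini-Hochberg adjusted p = 2.49e-06). Tll1, a procollagen protease, was at 9.90 to 26.6 (median 15.0) at D20 and 4.17 to 9.36 (median 5.50) at D30 and fell by 1.45 ± 0.25 (SE) on the log2 scale (edgeR quasi-likelihood test, Benjamini-Hochberg adjusted p = 2.87e-05), again without overlap.

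Proteases and their inhibitors held 10 rises and 6 falls among 20 tested (80% called, against 41.8% of annotated genes). The inhibitor Timp4 was at 0 to 0.0660 CPM at D20, under the floor, at 0 in all 6 organoids of D22 and at 0.554 to 7.83 (median 2.96) at D30. It passed the test for D30 against D20, and no fold is given since every D20 organoid lay under the floor. Mmp17, a membrane-anchored metalloprotease, was at 0.711 to 2.34 (median 1.24) at D20 and 3.71 to 16.2 (median 8.78) at D30 and rose by 2.77 ± 0.36 (SE) on the log2 scale (edgeR quasi-likelihood test, Benjamini-Hochberg adjusted p = 3.03e-07). Adamts18, a secreted protease needed for eye development, was at 20.5 to 51.6 (median 28.0) at D20 and 4.38 to 7.16 (median 5.07) at D30 and fell by 2.53 ± 0.21 (SE) on the log2 scale (edgeR quasi-likelihood test, Benjamini-Hochberg adjusted p = 5.53e-11). In these 3 genes D20 and D30 did not overlap, and in Adamts4, a proteoglycan-cleaving relative that fell by 1.72 ± 0.31 (SE) on the log2 scale (edgeR quasi-likelihood test, Benjamini-Hochberg adjusted p = 4.16e-05), they did.

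Matrix receptors held 16 rises and 3 falls among 29 tested (65.5% called, against 41.8% of annotated genes). Itga7, a laminin-binding integrin chain, was at 0 to 0.629 (median 0.160) at D20 and 2.33 to 9.08 (median 5.52) at D30 and rose by 4.47 ± 0.62 (SE) on the log2 scale (edgeR quasi-likelihood test, Benjamini-Hochberg adjusted p = 1.02e-06). The D20 median of Itga7 lay under the floor of 0.166 to 0.216 CPM, so the size of this rise is uncertain. Itgb3, a chain of vitronectin receptors, was at 0 to 0.711 (median 0.207) at D20 and 1.5 to 2.45 (median 2.01) at D30 and rose by 2.73 ± 0.70 (SE) on the log2 scale (edgeR quasi-likelihood test, Benjamini-Hochberg adjusted p = 0.00227). Its D20 median lay within the range of that floor. Itga6, which also binds laminin, was at 68.5 to 99.9 (median 76.7) at D20 and 15.2 to 46.9 (median 27.6) at D30 and fell by 1.46 ± 0.18 (SE) on the log2 scale (edgeR quasi-likelihood test, Benjamini-Hochberg adjusted p = 1.62e-07). None of the 3 overlapped between D20 and D30. The collagen-binding Itga2 was at 3.22 to 6.90 (median 5.34) at D20 and 1.17 to 3.92 (median 1.81) at D30, with overlap, and fell by 1.29 ± 0.28 (SE) on the log2 scale (edgeR quasi-likelihood test, Benjamini-Hochberg adjusted p = 0.000425). Other matrix proteins held 30 rises and 2 falls among 47 (68.1% called). Sparcl1, a glial matrix glycoprotein, was at 5.64 to 38.9 (median 14.2) at D20 and 82.4 to 1387 (median 690.1) at D30 and rose by 5.22 ± 0.60 (SE) on the log2 scale (edgeR quasi-likelihood test, Benjamini-Hochberg adjusted p = 3.33e-08), and Impg1, of the matrix between photoreceptors, was at 0.420 to 8.90 (median 4.46) at D20 and 112 to 209.6 (median 159) at D30 and rose by 5.11 ± 0.41 (SE) on the log2 scale (edgeR quasi-likelihood test, Benjamini-Hochberg adjusted p = 2.11e-11). The 2 that fell were Fras1, of embryonic basement membranes, at -0.99 ± 0.19 (SE) on the log2 scale (edgeR quasi-likelihood test, Benjamini-Hochberg adjusted p = 9.85e-05), and Ntn4, a laminin-related netrin, at -0.52 ± 0.14 (SE) on the log2 scale (edgeR quasi-likelihood test, Benjamini-Hochberg adjusted p = 0.00474). The Ntn4 call was lost without D30 organoids 1, 2 or 5 (highest adjusted p 0.0136 in edgeR's quasi-likelihood test with Benjamini-Hochberg adjustment). D20 and D30 overlapped in Fras1 only, of these 4.

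Organoids of the same day spread widely in these genes. Over the 51 members the median coefficient of variation from the earliest to the latest day was 0.371, 0.410, 0.372 and 0.447, against 0.191, 0.212, 0.178 and 0.218 over tested annotated genes, without matching for level. At D20, organoid 1 was the highest of 6 in 30 of the 51 members (58.8%), against 21.1% of annotated genes. At D22, organoid 6 was highest in 25 members, 49.0% against 22.4%, and at D30, organoid 5 in 22, 43.1% against 22.9%. At D25, organoids 3 and 4 shared the lead with 18 members (35.3% against 16.2%) and 17 (33.3% against 10.1%). The largest coefficients, averaged over days, were those of Col3a1 (1.14), Lama4 (1.13), Col6a3 (1.11), Col14a1 (0.918) and Col8a2 (0.862).

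Markers of cell types that carry matrix genes were read beside these values, and their part in the results was not tested. For D30 against D20, 26.8% of all features and 41.8% of annotated genes were called. 5 of 6 tested mesenchyme markers, from a list of 11, rose for D30 against D20, and the list summed to 11.6 to 25.8 (median 18.1) at D20, 8.95 to 24.7 (median 18.3) at D22, 28.4 to 74.1 (median 37.0) at D25 and 76.9 to 214 (median 124) at D30. Its most abundant gene was Pdgfra, at 5.43 to 16.3 at D20 and 36.1 to 152 at D30, a large part of the sum in every D30 organoid. Of its defining markers Prrx1 was at 0.403 to 4.35 (median 1.40) at D20 and 2.99 to 13.5 (median 8.06) at D30, and Twist1 at 1.1 or under in every organoid and at 0 in all of D22. Dcn, a small proteoglycan of stroma singled out after its values were seen, was at 23.0 CPM in D25 organoid 4 and 33.4 in D30 organoid 5, the 2 organoids highest in Col3a1, and at 27.1 in D30 organoid 1. Mural cell markers, 5 of 8 tested, gave 2 rises and 1 fall and summed to 4.98 to 18.9 (median 8.44) at D20 and 10.5 to 66.0 (median 22.1) at D30. Which gene led the list varied between organoids. Of the defining genes Rgs5 was highest in D30 organoid 5 (32.2) and organoid 1 (26.5), while Myh11 reached 23.6.

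Müller glia markers were all tested, 7 of 9 rose and 1 fell, and the list summed to 1196 to 1580.2 (median 1358) at D20 and 1660.3 to 4993 (median 3044) at D30, lowest at D30 in organoid 6. Its most abundant gene was Dkk3 at D20 and Apoe at D30. The defining markers Rlbp1 and Glul were at 19.5 to 56.5 (median 30.3) at D20 and 99.9 to 185 (median 134) at D30 and at 158 to 223 (median 194) at D20 and 127 to 394 (median 250.3) at D30. Of 4 astrocyte markers 3 were tested and rose. The list summed to 0.537 to 26.4 (median 5.90) at D20 and 117 to 2195 (median 664) at D30. Gfap was nearly all of the D30 sum, and the other defining marker Pax2 was at 1.91 or under. The paper treats GFAP as a hallmark of reactive gliosis in Müller glia. It also states that MRO systems lack cell types such as astrocytes, microglia, vasculature and the pigment epithelium of the retina. Of 9 endothelium markers 3 were tested, 1 rose and 2 fell. They summed to 258 to 343 (median 273) at D20 and 126 to 209.7 (median 177) at D30, nearly all of it Kdr, which retinal progenitors and neurons also express, while the defining Cdh5 stayed at 0.554 or under and Pecam1 at 1.93 or under.

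Cartilage markers gave 1 rise among 4 tested of 8 and summed to 14.8 to 33.8 (median 21.7) at D20 and 17.3 to 88.4 (median 47.6) at D30. Sox5 was the most abundant, and of the defining markers Matn1 stayed at 0.532 or under and Acan at 6.95 or under. Pigment epithelium markers gave 1 rise and 1 fall among 5 tested of 9 and summed to 127 to 243 (median 153) at D20 and 33.5 to 2717 (median 418) at D30. Dct, which led at D20, was at 118 to 190.1 (median 146) at D20 and 9.99 to 49.0 (median 35.8) at D30, and Ttr, which led at D30 and was highest in organoids 2 and 6, was at 0.739 to 21 (median 6.86) at D20 and 19.9 to 2627 (median 358) at D30. Of the others Rpe65 was at 0.216 or under and Tyr at 13.3 or under. Choroid plexus markers, which share Ttr with that list, gave 3 rises and 1 fall among 5 tested of 6 and summed to 267 to 441 (median 338) at D20 and 116 to 2763 (median 418) at D30. Kcne2, nearly all of the D20 sum, was at 257 to 412 (median 324) at D20 and 26.7 to 87.1 (median 54.7) at D30. Ttr led in every D30 organoid except organoid 4, where it was at 19.9 and Kcne2 at 87.1. The defining Kl was at 1.58 or under and Folr1 at 22.1 or under.

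Muscle markers fell in both tested of 6 and summed to 5.94 to 11.5 (median 10.3) at D20 and 0.665 to 5.09 (median 1.47) at D30, Myh3 being the most abundant and the defining Myod1 and Myog at 0.290 and 0.326 or under. Surface epithelium markers, 1 tested of 6 and not called, summed to 3.17 to 8.25 (median 4.59) at D20 and 1.27 to 9.59 (median 2.24) at D30, mostly Epcam, with Krt5 at 0.783 and Krt14 at 0.131 or under. No lens marker of 8 passed the filter, and the list summed to 0.0699 to 1.49 (median 0.786) at D20 and 0.499 to 10.7 (median 1.61) at D30, with the leading gene varying between organoids and Cryaa and Mip at 2.57 and 1.77 or under. Retinal neuron markers gave 2 rises and 5 falls among 8 tested, with Crx the most abundant.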

How the data were processed

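RNA sequencing of 24 single mouse retinal organoids was used, 6 at each of 4 days in culture, 1 library each (ScriptSeq v2 with Ribo-Zero Gold, strand-specific). The authors made the deposited counts, which are unnormalized, with bcl2fastq 2.20, cutadapt 1.5, FastQC 0.11.2, HISAT2, SAMtools 1.1, StringTie 1.3.3 and HTSeq 0.6.1. Symbols, exon lengths and overlaps came from GENCODE M21, which matched 46091 of 126602 identifiers.

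Depth was 13634846 to 19477108 counted reads per organoid, so 3 counts equal 0.166 to 0.216 normalized CPM. Organoids of a timepoint differed by at least 6.09 times what counting error gives (chi-square per degree of freedom). The 46949 features that reached a base mean of 10 were fitted in 1 model of the 4 timepoints in edgeR 4.0.16 (R 4.3.3) with TMM normalization. The quasi-likelihood test was adjusted by Benjamini-Hochberg over all of them, with a threshold of 0.01. Comparisons were the 3 successive steps, D30 against D20, and a joint test. SE is the size of the log2 fold change over the square root of F. The fit was tested on simulated data, where planted fold changes were recovered while most of the smaller ones missed the threshold.

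Alternatives were DESeq2 1.42.0 (limma 3.58.1 loaded with edgeR), DESeq2 size factors in edgeR, no low-count filter, filterByExpr, annotated genes only, replicate number as a block, only the timepoints compared, and each organoid left out in turn. Levels without division by exon length were a further alternative. Figures used Python 3.11.15 and matplotlib 3.10.9.

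Genes named follow a rule. They are the 2 most abundant members per kb of each role class, up to 6 rises and 6 falls past the threshold per comparison, the 3 neighbouring collagen IV pairs, the 5 members with the largest spread, and 2 rises and 2 falls of each matrix list. Others named were chosen after their values were seen. Members and lists were chosen with earlier results of these data known. The endoderm list was chosen after D30 organoid 6 was seen. The summed class levels without it were added then too. Tests, alternatives and the naming rule were written before the data were examined here. Members under the filter were left out of the tests.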

Additional observations from a re-analysis of the deposited data

Results flagged for a closer look

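For 240 sets of 6 organoids (the tested members and the summed levels of role classes, each day apart), the gap between the highest or lowest organoid and its nearest neighbour was divided by the range of the 6. In 27 sets it exceeded Dixon's 95% critical value for 6 samples. For normally distributed values chance marks about 1 in 20 sets, or 12 of 240. The levels were used without a log transformation and the sets share genes and organoids, so 12 is a rough guide. All values below are normalized CPM, and each is the highest of its day except that of Col12a1 in D22 organoid 3, which is the lowest.

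D30 organoid 6 held 8 of the 27: Col4a1 at 343, Col4a2 at 237, Lama1 at 257, Lamb1 at 267, Lamc1 at 183 and Nid1 at 62.5, and the sums of collagen IV at 642 and of laminin chains at 736. D20 organoid 1 held 6: Col14a1 at 2.45, Col18a1 at 60.1, Fbn2 at 114, Lama3 at 4.34, and the sums of multiplexin collagens at 60.7 and of fibronectin and fibrillins at 191. D30 organoid 5 was set apart in Col3a1 (107), Col15a1 (6.33) and Lama3 (3.98), and D25 organoid 4 in Col3a1 (70.9) and Nid1 (15.0). D22 organoid 6 was set apart in Col1a2 (6.72), Col22a1 (5.39), Fbn1 (8.12) and Lama5 (7.45), and D20 organoid 4 in Col6a3 (1.98) and Col12a1 (20.5). The last 2 sets were Col6a3 in D22 organoid 2 (2.44) and Col12a1 in D22 organoid 3 (1.69). The cause was not tested.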

How the results depend on the processing

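With the reported settings 1 member was called for D22 against D20, with 2 under the DESeq2 test, 2 with no filter on low counts, 4 when only the timepoints compared were fitted, and 0 to 2 when 1 organoid was left out. The 8 for D25 against D22 became 3 without D25 replicate 4, 4 without D22 replicate 1 and up to 9 in the other leave-one-out fits. The 5 for D30 against D25 became 11 under the DESeq2 test, 12 with no filter, 3 with only the timepoints compared, and 2 (without D25 replicate 2) to 9 (without D30 replicate 3) in leave-one-out, with 3 without D25 replicate 6 or D30 replicate 5. The 27 for D30 against D20 ranged from 25 to 30 over the other settings and from 24 to 29 in leave-one-out, the 30 of the joint test from 28 to 37 and from 28 to 32, and the 85 matrix genes from 82 to 91 and from 77 to 89. These alternatives can call members outside the 51 tested, for D30 against D20 Col10a1, Col19a1 and Col6a4, which are 3 of the 30 called with no filter. Over leave-one-out, log2 fold changes ranged from -0.73 to 0.55 for Col4a2 and from -2.16 to 0.39 for Lama1 in D30 against D20, and from -0.80 to 1.77 for Lama1 in D30 against D25. These 3 reversed only without D30 replicate 6. Over all alternatives the adjusted p (edgeR quasi-likelihood or DESeq2 test, Benjamini-Hochberg) for D30 against D20 ranged from 0.00336 to 0.822 for Col4a2 and from 6.35e-13 to 0.954 for Lama1, for which DESeq2 gave none. Of 8288 log2 fold changes of named genes and members over all settings, 7964 kept direction and side of the threshold, 113 changed sign without a call in either, 130 fell short of the threshold, 78 newly passed it and 3 reversed. Genes under the filter in a fit of 2 timepoints have no value there. Pairing of organoids by replicate number was not tested. Same-number correlations were -0.0819 to 0.199, with a mean of 0.0125 against -0.00243 for other numbers. Of 36 same-number pairs 1 lay above 0.1, and 8 of 24 organoids correlated best with their own number. The number given by chance was not computed. With replicate number as a block the counts were 1, 6, 4 and 26, then 28 in the joint test and 82 matrix genes. All 40 summed levels (9 classes and all members, on 4 days) moved by less than 1 SD under DESeq2 size factors. Without D30 replicate 6, a choice made after seeing the data, the D30 mean of collagen IV went from 234 to 152 and that of laminin chains from 231 to 130. Among the 10 highest members by level, 9 stayed without division by exon length. The median of all features moved furthest by -0.09 (annotated genes only). With only the timepoints compared, the split of all called features into higher and lower went from 760 and 134 to 520 and 302 for D22 against D20, and from 827 and 820 to 995 and 591 for D30 against D25. The cause was not tested, except that leaving out an organoid or a timepoint leaves fewer samples.

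Depth limits low members: 3 counts equal 0.166 to 0.216 normalized CPM, and 11 members were too low to test. Counts cannot separate genes that overlap on opposite strands, transcript forms, or cell number from RNA per cell. The organoids come from 1 line and 1 experiment.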

Other observations

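These values were picked after they were seen, and nothing was tested on them. At D30, Col8a1 and Col8a2 were highest in organoid 2 (27.8 and 11.2 normalized CPM) and next in organoid 6 (12.9 and 5.65). Ttr was at 2627 and 2461 in these 2 organoids, against 19.9 to 462 in the other 4 of D30, Folr1 at 21.3 and 22.1 against 4.87 to 8.29, and Clic6 at 12.2 and 17.7 against 0.206 to 3.20. D30 organoids 1 and 5 were the highest of D30 in Gfap (2034 and 2163), Rgs5 (26.5 and 32.2), Dcn (27.1 and 33.4), Col3a1 (37.7 and 107) and Col4a5 (77.7 and 87.2).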
